A study of Mus musculus with 141 samples.

Results

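MicroRNAs (miRNAs) of the medial habenula (MHb) were compared between mice in acute nicotine withdrawal (NAWD) and control mice that drank tartaric acid (TA). The comparison takes in every miRNA of the MHb, in 10 of the 141 libraries of the study. Of 1907 miRNAs listed, 838 were above 0 in at least a share of 0.5 of the libraries of each group and were tested. NAWD mice were male C57BL/6J mice, 6 weeks old at the start, that drank nicotine base at 200 μg/ml for 6 weeks and then the tartaric acid solution for 48 h. TA mice were of the same strain, sex and age and drank tartaric acid throughout, and the water of both groups held saccharine at 3 g/L. Each group had 5 libraries, and each library pooled tissue punches of the MHb from 4 animals, so that the spread between libraries is a spread between pools. Libraries of mice still drinking nicotine (Nic) also entered the filter above and the fit of the changes. Libraries of mice 4 weeks after nicotine (NLWD) and of their age-matched controls (TAL) are given only where the acute change is set beside them.

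miRNAs are short RNAs that guide Argonaute proteins to messenger RNAs and lower their stability or translation. Each is cut from a hairpin whose arms can both give a mature miRNA, and the bases from position 2 to position 8, the seed, set most of the target choice, so that miRNAs with one seed form a family. The MHb is a small epithalamic nucleus whose cholinergic and substance P neurons carry nicotinic receptors and project to the interpeduncular nucleus (IPN), a path known for its part in the aversive signs of nicotine withdrawal.

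At 48 h of withdrawal, 12 miRNAs rose and 11 fell in the MHb (limma, Benjamini-Hochberg adjusted p under 0.01), which is 2.74% of the 838 tested, with 1.43% higher and 1.31% lower. Members of the let-7 family, which is known for holding cells in a differentiated state, were among those that rose, and members of the miR-30, miR-29 and miR-181 families were among those that fell. The changes were small. The median log2 fold change was 0.43 over the miRNAs that rose and -0.48 over those that fell, against 0.011 over all 838. The mean level of the called miRNAs ran from 89.9 to 47881 RPM, the unit in which the authors give the share of each miRNA among all miRNA reads of a library. Each value comes from punched tissue, in which fewer cells of a type and less RNA per cell cannot be told apart. Without a correction for unwanted variation the test called 1 miRNA, and the count ran from 6 without NAWD library 3 to 47 without NAWD library 5.

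The mature sequences of the 11 miRNAs that fell are shown first, because they include members of the miR-30, miR-29 and miR-181 families. They are RefSeq entries on GRCm38, written 5′ to 3′ with the seed in capitals.
miR-136-5p: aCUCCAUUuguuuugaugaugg
miR-101c: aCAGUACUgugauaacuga
miR-495-3p: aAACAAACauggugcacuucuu
miR-340-5p: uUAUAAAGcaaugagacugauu
miR-29b-3p: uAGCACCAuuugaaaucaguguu
miR-203-3p: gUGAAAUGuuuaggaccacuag
miR-137-3p: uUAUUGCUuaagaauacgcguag
miR-181c-5p: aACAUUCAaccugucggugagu
miR-19b-3p: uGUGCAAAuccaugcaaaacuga
miR-30e-5p: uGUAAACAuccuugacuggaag
miR-30a-5p: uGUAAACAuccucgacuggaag

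Of the 12 miRNAs that rose, 9 have an entry in the same table and are shown for contrast in their base composition. miR-320-3p, miR-669c-5p and miR-328-3p are named only.
let-7i-5p: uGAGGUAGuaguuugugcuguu
let-7c-5p: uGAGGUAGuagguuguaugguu
let-7b-5p: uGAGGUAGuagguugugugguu
miR-672-5p: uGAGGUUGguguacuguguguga
miR-872-5p: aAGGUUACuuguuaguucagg
miR-204-3p: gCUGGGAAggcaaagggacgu
miR-3099-3p: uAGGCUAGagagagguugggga
miR-1224-5p: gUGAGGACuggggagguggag
miR-744-5p: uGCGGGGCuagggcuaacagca

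miR-136-5p, cut from a hairpin of the imprinted Dlk1-Dio3 region (chromosome 12, start 109595331), had the largest fall among the called miRNAs in the fit with 4 factors, while with no factors miR-495-3p did (-0.95 on the log2 scale). Its level was 107, 117, 107, 65.6 and 121 RPM in the NAWD libraries, against 222, 163, 203, 201 and 168 RPM in the TA libraries. The groups did not overlap, and NAWD library 4 lay apart below the other NAWD libraries. The log2 fold change was -0.72 ± 0.108 (SE, adjusted p = 0.000489 by limma). miR-495-3p, of the same region (start 109718795), had 166, 299, 277, 159 and 345 RPM in NAWD libraries, against 408, 466, 482, 469 and 479 RPM in TA libraries. Every NAWD library was again below every TA library, with a log2 fold change of -0.55 ± 0.0883 (SE, adjusted p = 0.00063 by limma).

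miR-137-3p, a miRNA of neurons known for its place at a schizophrenia risk locus in humans, had 1835, 2020.1, 2108, 1603 and 2208 RPM in NAWD libraries, against 3152, 2530, 3394, 3134 and 2671 RPM in TA libraries. The groups were apart, with a log2 fold change of -0.44 ± 0.0762 (SE, adjusted p = 0.00123 by limma). miR-340-5p, which lies within the Rnf130 gene, had 1485, 1788, 2074, 1422 and 2315 RPM in NAWD libraries, against 3011, 2696, 3142, 2810 and 2480 RPM in TA libraries. It too had no overlap between groups, at a log2 fold change of -0.49 ± 0.0956 (SE, adjusted p = 0.00223 by limma). miR-203-3p, known as a miRNA of epidermal differentiation, averaged 160.0 ± 12.6 RPM in NAWD libraries and 222 ± 17.04 RPM in TA libraries (SD, n = 5 each). miR-19b-3p, a member of the miR-17-92 cluster, averaged 183 ± 17.8 RPM in NAWD libraries and 249 ± 14.4 RPM in TA libraries (SD, n = 5 each). Both fell with no overlap, by 0.48 and 0.40 on the log2 scale.

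miR-101c averaged 77.0 ± 18.4 RPM in NAWD libraries and 103 ± 22.3 RPM in TA libraries (SD, n = 5 each), and its groups overlapped. Its 19 bases lie whole within the 21 bases of miR-101a-3p, which averaged 36905 RPM in NAWD libraries and 36576 RPM in TA libraries. Per the study's methods, reads that fit several miRNAs were split. The deposited values came to whole reads, so how such reads were counted is not known. The level of miR-101c is therefore uncertain.

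**Figure D1:**
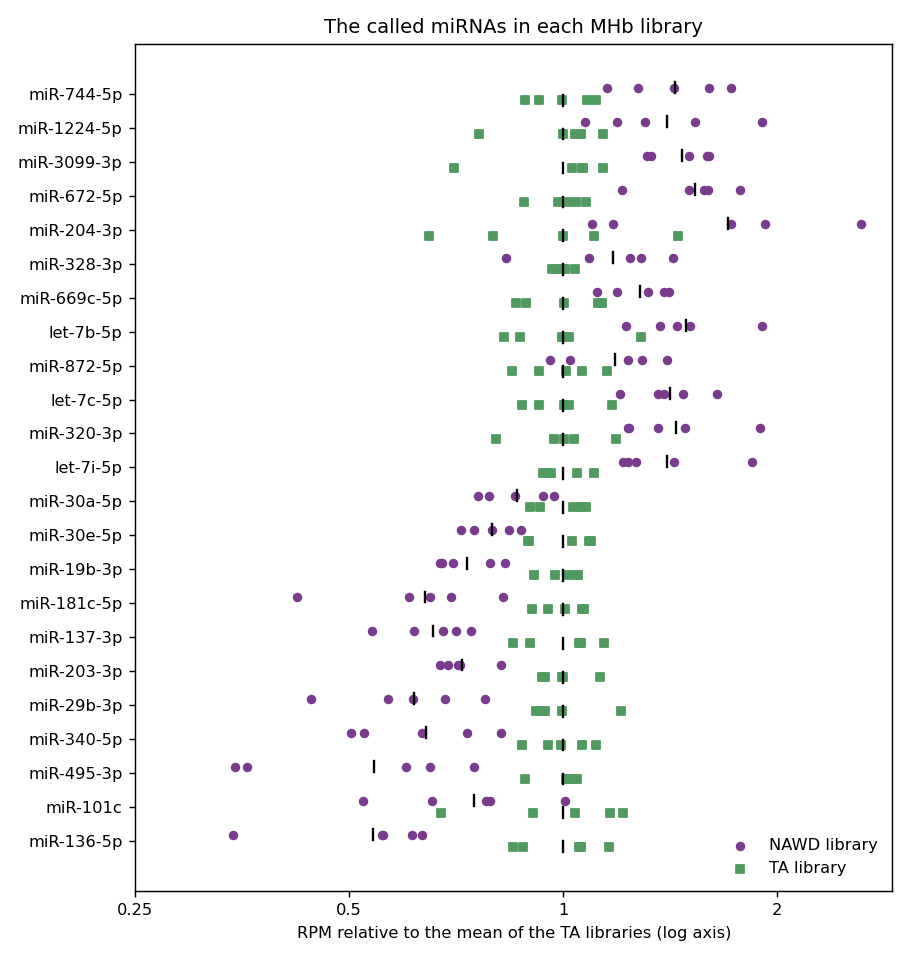
RPM of the 23 called miRNAs in each MHb library, divided by the mean of the TA libraries (log axis), with NAWD libraries as circles above and TA libraries as squares below, and a black tick at each group's mean. The groups are apart in 15 of the 23 miRNAs.

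Among the miRNAs that rose, miR-744-5p, which lies within the Map2k4 gene, had the largest change in the fit with 4 factors, while with no factors miR-204-3p did (0.75 on the log2 scale). miR-744-5p had 378, 511, 475, 424 and 342 RPM in NAWD libraries, against 274, 320, 262, 295 and 330 RPM in TA libraries. All NAWD libraries were higher than all TA libraries, and the log2 fold change was 0.64 ± 0.123 (SE, adjusted p = 0.00223 by limma). miR-3099-3p, within the imprinted Usp29 gene, had 244, 292, 276, 294 and 240 RPM in NAWD libraries, against 129, 195, 188, 195 and 209 RPM in TA libraries. The groups were apart, at a log2 fold change of 0.52 ± 0.0934 (SE, adjusted p = 0.00168 by limma). miR-672-5p, on the X chromosome within Nexmif, had 248, 264, 261, 293 and 200 RPM in NAWD libraries, against 145, 168, 172, 162 and 178 RPM in TA libraries. These groups were apart as well, at a log2 fold change of 0.49 ± 0.0947 (SE, adjusted p = 0.00223 by limma).

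miR-320-3p, which is cut without the Drosha step, averaged 2089.9 ± 396 RPM in NAWD libraries and 1449 ± 199 RPM in TA libraries (SD, n = 5 each), with groups apart and a log2 fold change of 0.31 (adjusted p = 0.00494 by limma). Of the 12 miRNAs that rose 6 had groups apart, and of the 11 that fell 9. miR-328-3p had 5526, 7238, 6298, 4224 and 6535 RPM in NAWD libraries, against 5277, 5031, 4901, 5058 and 5102 RPM in TA libraries. NAWD library 4 lay below every TA library while the other NAWD libraries lay above them all, and the fitted log2 fold change was 0.44 (adjusted p = 0.000489 by limma) with 4 factors of unwanted variation and 0.21 with none. miR-1224-5p averaged 201 ± 47.1 RPM in NAWD libraries and 143 ± 20.3 RPM in TA libraries (SD, n = 5 each), and miR-872-5p averaged 811 ± 127 RPM and 686 ± 81.5 RPM in the same groups (SD, n = 5 each). Both overlapped between groups. miR-669c-5p averaged 344 ± 33.95 RPM in NAWD libraries and 268 ± 34.1 RPM in TA libraries (SD, n = 5 each). It belongs to a large repeated cluster whose members may share reads. Over all tested miRNAs the groups were apart in 54, which is 6.44%, with 21 higher (2.51%) and 33 lower (3.94%) in NAWD mice.

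**Figure D2:**
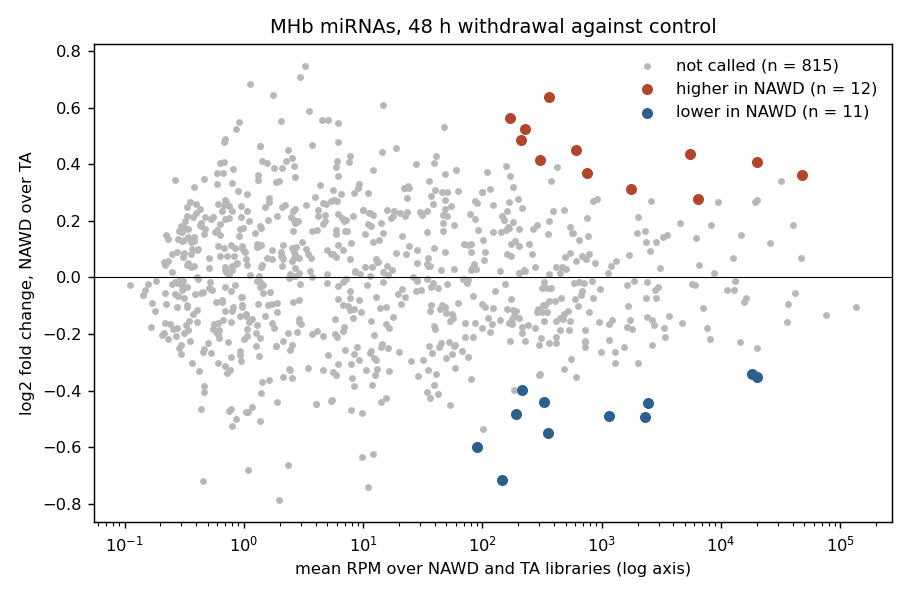
Log2 fold change of NAWD over TA (fit with 4 factors) against mean RPM (log axis) for the 838 tested miRNAs, 1 point each. The 12 called higher and the 11 called lower lie at mean levels from 89.9 to 47881 RPM, with uncalled miRNAs of larger change at low levels.

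The let-7 family took a larger share of miRNA reads in withdrawal. Its 11 listed members summed to 23.2% ± 0.93 of miRNA reads in NAWD libraries and 19.3% ± 1.08 in TA libraries (SD, n = 5 each), with ranges from 22.04% to 24.62% and from 18.03% to 20.98% that did not overlap. This is a description with no test. Among the 11, let-7j has the seed GAGGUAU where the others have GAGGUAG, and its level was 3.59 to 7.74 RPM over these libraries. Of the 11 members 3 rose and none fell by the test, 9 had a positive log2 fold change, and their median was 0.18 against 0.011 over all tested miRNAs. Of all 838 tested, 1.43% rose, 1.31% fell and 51.1% had a positive log2 fold change. With no factors or with quantile normalization 8 were positive, and the median stayed above 0. let-7c-5p had 58493, 54993, 53908, 65309 and 47708 RPM in NAWD libraries, against 34764, 39855, 36751, 40528 and 46498 RPM in TA libraries. The groups were apart, though NAWD library 5 and TA library 5 nearly met, and the log2 fold change was 0.36 ± 0.0716 (SE, adjusted p = 0.00243 by limma).

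let-7b-5p rose by a log2 fold change of 0.41 ± 0.074 (SE, adjusted p = 0.00169 by limma), at 23946 ± 4106 RPM in NAWD libraries and 16050.5 ± 2899 RPM in TA libraries (SD, n = 5 each). let-7i-5p rose by 0.28 ± 0.0642 (SE, adjusted p = 0.00887 by limma). The seed is the same in these members, and they differ only outside it. Counted from the 5′ end of let-7a-5p, let-7c-5p carries A19G, and let-7b-5p carries A17G and A19G. let-7i-5p carries G12U, A17G, U18C and A19U, and let-7f-5p carries G12A. A link of these bases to the changes was not tested. let-7f-5p averaged 48553 ± 1381 RPM in NAWD libraries and 45994 ± 1091 RPM in TA libraries (SD, n = 5 each), with a log2 fold change of 0.07 (adjusted p = 0.655 by limma). The hairpins of let-7b and of the second let-7c copy lie 709 bases apart on chromosome 15. On chromosome 16 the first let-7c copy lies 732 bases from miR-99a-5p, which averaged 12322 RPM in NAWD libraries and 13253 RPM in TA libraries, with a log2 fold change of -0.05 (adjusted p = 0.819 by limma).

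The miR-30 family, whose seed is GUAAACA, had 6 members tested, of which 2 fell and none rose. All 6 had a negative log2 fold change, with a median of -0.26. Of all 838 tested miRNAs, 1.31% fell, 1.43% rose and 48.9% had a negative log2 fold change. With a correction for G and C content neither call held (adjusted p = 0.0161 for miR-30e-5p and 0.0116 for miR-30a-5p by limma). miR-30e-5p had 19661, 16919, 16227, 17932 and 18959 RPM in NAWD libraries, against 24736, 20118, 24527, 23223 and 20193 RPM in TA libraries. The groups were apart, at a log2 fold change of -0.35 ± 0.0699 (SE, adjusted p = 0.00243 by limma). miR-30a-5p fell by 0.34 on the log2 scale (adjusted p = 0.00441 by limma), with groups that overlapped. The family summed to 5.81% ± 0.314 of miRNA reads in NAWD libraries and 6.98% ± 0.551 in TA libraries (SD, n = 5 each).

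The miR-29 family, known for its targets among collagens and DNA methyltransferases, had 3 members, all with a negative log2 fold change, of which 1 fell by the test. miR-29b-3p had 802, 1099, 871, 625 and 965 RPM in NAWD libraries, against 1326, 1412, 1296, 1335 and 1707 RPM in TA libraries. Its groups were apart and its log2 fold change was -0.49 ± 0.0983 (SE, adjusted p = 0.00266 by limma), but with the correction for G and C content the call was lost (adjusted p = 0.0372 by limma) and the family's median was -0.02. miR-29a-3p, the most abundant member, averaged 14257 ± 1790 RPM in NAWD libraries and 17103 ± 1048 RPM in TA libraries (SD, n = 5 each), with a log2 fold change of -0.09 (adjusted p = 0.567 by limma). In the miR-181 family all 4 members had a negative log2 fold change, with a median of -0.26, and 1 fell. Of all 838 tested miRNAs 1.31% fell and 48.9% had a negative log2 fold change, and nothing is read from 1 call per family. miR-181c-5p had 263, 333, 282, 171 and 245 RPM in NAWD libraries, against 430.2, 433, 407, 385 and 365 RPM in TA libraries, at a log2 fold change of -0.44 ± 0.084 (SE, adjusted p = 0.00223 by limma). Its groups were apart.

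**Figure D3:**
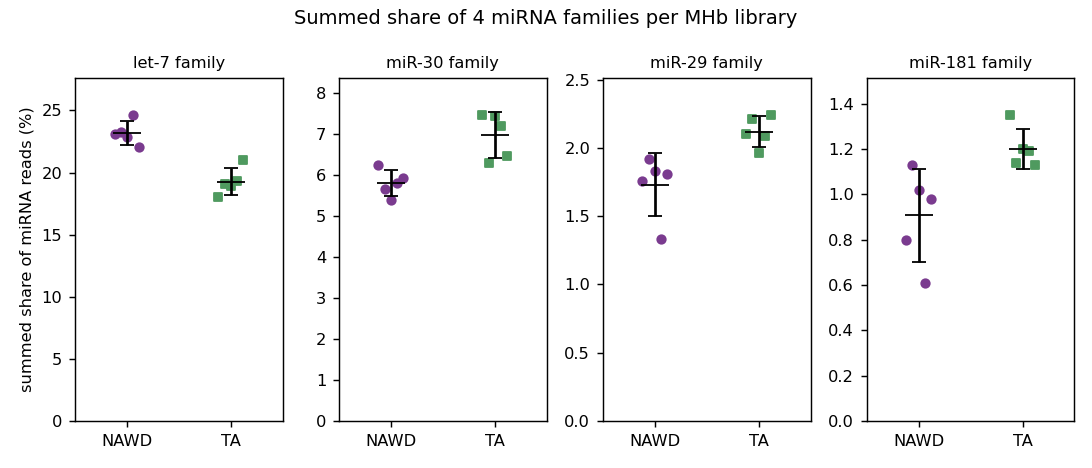
Summed share of miRNA reads (%) of the let-7, miR-30, miR-29 and miR-181 families in each MHb library, NAWD left and TA right, with the mean and SD (n = 5 each) in black. The let-7 share was 23.2% in NAWD and 19.3% in TA libraries, and the other families had lower means in NAWD libraries.

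For 17 of the called miRNAs the other arm was tested, 19 miRNAs in all since some hairpins have several copies, and 0 of these were called by limma, with 2 at an unadjusted p under 0.05 and 0 called by edgeR. Of these, 11 had a mean of at least 10 RPM, and their log2 fold changes ran from -0.23 to 0.18 with 4 factors and from -0.44 to 0.03 with none. With no factors miR-30e-3p was at -0.44, where miR-30e-5p was at -0.33. miR-181c-3p averaged 82.0 ± 9.18 RPM in NAWD libraries and 80.0 ± 4.67 RPM in TA libraries (SD, n = 5 each), with a log2 fold change of 0.03 where miR-181c-5p fell. miR-204-3p rose (775 ± 282 RPM in NAWD libraries and 453 ± 140 RPM in TA libraries, SD, n = 5 each), while the abundant arm miR-204-5p averaged 15565 ± 3206 RPM in NAWD libraries and 16683 ± 3717 RPM in TA libraries (SD, n = 5 each). The groups overlapped for miR-204-3p (adjusted p = 0.00592 by limma), and its call was lost with the correction for G and C content (adjusted p = 0.0279 by limma). No test of the difference between arms was run.

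Genes that hold a called hairpin on the same strand were read in the mRNA libraries of the MHb, with 4 NAWD and 4 TA libraries. There were 13 such genes for 13 of the called miRNAs, and 11 of them were above 0 in at least a share of 0.5 of the libraries of each group. The groups overlapped in these 11, where 4.69% of the 17136 genes that passed the same filter had groups apart. Map2k4, which holds miR-744, averaged 13.1 ± 1.95 TPM in NAWD libraries and 9.95 ± 1.75 TPM in TA libraries (SD, n = 4 each). Rnf130, which holds miR-340, averaged 32.0 ± 8.10 TPM in NAWD libraries and 31.9 ± 11.2 TPM in TA libraries (SD, n = 4 each).

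The Dlk1-Dio3 region holds 113 mature miRNAs of the table, of which 95 were tested. Of these 2 fell, miR-136-5p and miR-495-3p, and none rose, where 1.31% of all 838 tested miRNAs fell and 1.43% rose. Nothing is read from so small a count. The median log2 fold change was -0.04. With no factors the median was -0.21, against -0.076 over all tested miRNAs. miR-434-5p, whose hairpin lies 803 bases from that of miR-136, averaged 1134 RPM in NAWD libraries and 1471 RPM in TA libraries, with a log2 fold change of -0.27 (adjusted p = 0.0387 by limma). miR-127-3p, 2443 bases away, averaged 6232 RPM in NAWD libraries and 6042 RPM in TA libraries. The long RNA Meg3 of this region averaged 108 ± 37.8 TPM in NAWD libraries and 137 ± 54.3 TPM in TA libraries (SD, n = 4 each).

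The study names 32 miRNAs for the MHb in its table of predicted targets. It chose them on these samples as lower in withdrawal, so that their direction is not independent evidence. Of these 7 fell and none rose by the test, and 31 had a negative log2 fold change, with a median of -0.28. Of all 838 tested miRNAs, 1.31% fell, 1.43% rose and 48.9% had a negative log2 fold change. With DESeq2 the study reports more miRNAs changed in this comparison, in both directions, than were called here. Of the 10 most abundant miRNAs of the MHb, let-7c-5p alone was called, where 2.74% of all tested miRNAs were. miR-9-5p, a miRNA of neurons and neural progenitors and the most abundant, averaged 136220.5 RPM in NAWD libraries and 136036 RPM in TA libraries. miR-124-3p, the main miRNA of neurons, had 43190, 42234, 35538, 30721 and 25161 RPM in NAWD libraries, against 26320, 32496, 28204, 27618 and 28723 RPM in TA libraries. It varied widely among NAWD libraries, and its log2 fold change of 0.34 was not past the threshold (adjusted p = 0.15 by limma). miR-132-3p, known to follow neuronal activity, averaged 446 ± 168 RPM in NAWD libraries and 556 ± 47.1 RPM in TA libraries (SD, n = 5 each).

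Base composition followed the fold changes across miRNAs. Among 358 miRNAs with a mean of at least 10 RPM and a RefSeq sequence, Spearman's rho between the share of G and C and the log2 fold change was 0.48 and Pearson's r was 0.495, a description across miRNAs of the same 10 libraries. Of 30 miRNAs with at most 35% G and C, 25 had a negative log2 fold change, with a median of -0.18. Of 82 above 55%, 68 had a positive one, with a median of 0.17. The called miRNAs that fell had a median G and C content of 36.8% and those that rose one of 47.8%, over 11 and 9 miRNAs with a sequence. The median over all 358 was 47.6%, near that of the miRNAs that rose.

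The slope of each library's log2 level on G and C content, against the mean of the TA, Nic and NAWD libraries, was 0.171, 0.16, 0.049, 0.119 and -0.022 per 10% in the NAWD libraries, and ran from -0.085 to -0.013 in the TA libraries. NAWD library 5 lay within the TA range and the other NAWD libraries lay above it. With a correction for G and C content 13 miRNAs were called higher and 4 lower. Of the 12 that rose 10 kept their call, and of the 11 that fell 4. Among those that fell, miR-101c, miR-340-5p, miR-29b-3p, miR-137-3p, miR-19b-3p, miR-30e-5p and miR-30a-5p lost it (adjusted p from 0.0116 to 0.0796 by limma). Among those that rose, miR-204-3p and miR-1224-5p lost it. miR-320-3p, miR-669c-5p and miR-328-3p are among the 10 that kept it but have no sequence, so that their own levels were not corrected. The part of base composition in the changes was not tested further. Depth moved with the groups as well, at 5520204 to 8751598 miRNA reads in NAWD libraries and 2788281 to 4452432 in TA libraries. With the reads of each library thinned to a common depth 25 miRNAs were called, and the 23 were among them. The 23 have mean levels of 89.9 RPM or more and keep many reads after thinning, which evens only the number of reads. Other differences between libraries that moved with depth were not tested.

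**Figure D4:**
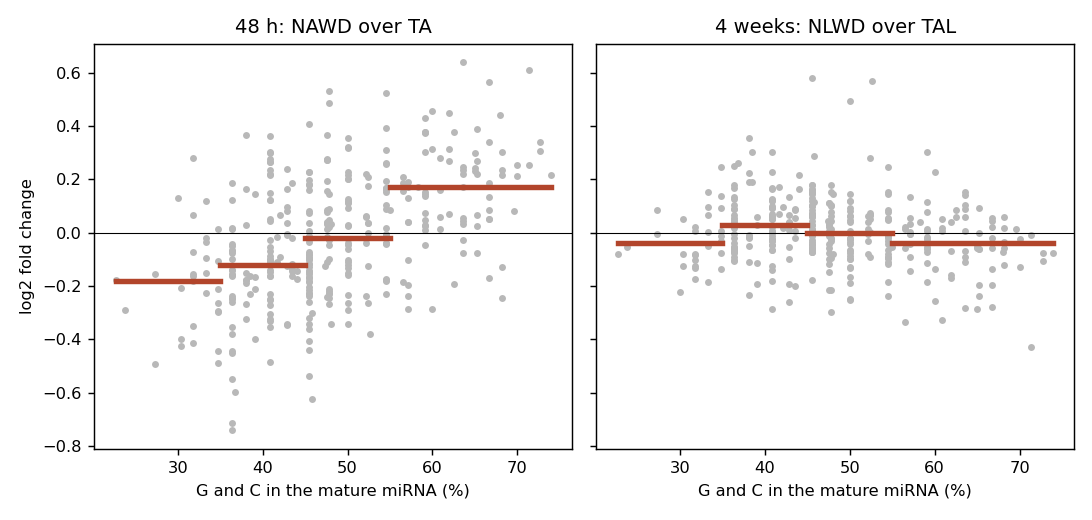
Log2 fold change against the share of G and C in the mature sequence (%) for 358 miRNAs of at least 10 RPM, at 48 h (left) and at 4 weeks (right), with red bars at the medians of 4 ranges of G and C content. At 48 h the medians run from -0.18 to 0.17, and at 4 weeks from -0.04 to 0.03.

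In NLWD mice against TAL mice 0 of 838 miRNAs were called by limma (0.0%), with 47 at an unadjusted p under 0.05. The median log2 fold change at 4 weeks was -0.1 for the miRNAs that rose at 48 h and 0.18 for those that fell. The change at 48 h differed from that at 4 weeks in 33 miRNAs (3.94% of those tested, limma adjusted p under 0.01), and 19 of the 23 called miRNAs were among them. The 23 were called on the change at 48 h, which is part of this difference, so that this count is not independent of their call. miR-136-5p averaged 203 ± 15.8 RPM in NLWD libraries and 186 ± 10.4 RPM in TAL libraries (SD, n = 5 each), and its changes differed by -0.89 ± 0.125 on the log2 scale (SE, adjusted p = 5.9e-05 by limma). Spearman's rho with G and C content was -0.149 at 4 weeks.

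**Figure D5:**
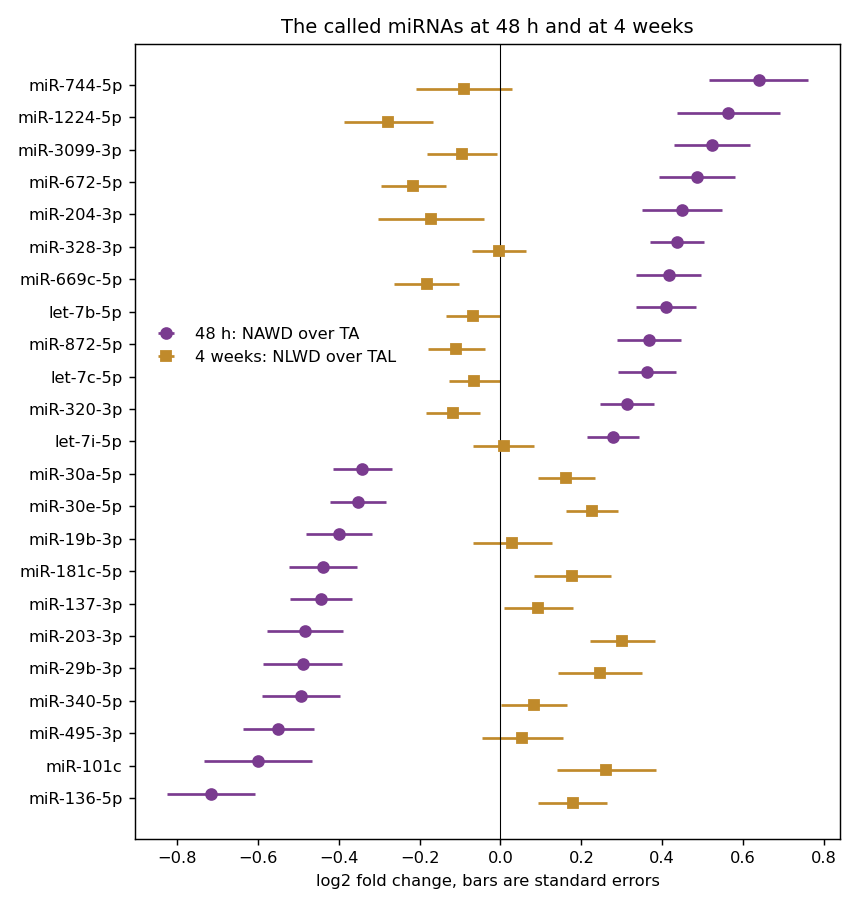
Log2 fold change with its standard error for the 23 called miRNAs at 48 h (NAWD over TA, circles) and at 4 weeks (NLWD over TAL, squares). The 48 h values are from the fit of TA, Nic and NAWD libraries, and the 4-week values from a fit of all 25 MHb libraries. The sign is opposite at 4 weeks in 22 of the 23, with no miRNA called at 4 weeks. Opposite signs were not counted over all tested miRNAs, so no reversal is read from this.

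In mice still drinking nicotine miR-136-5p ran from 178 to 235 RPM, above every NAWD library, while let-7c-5p ran from 34666 to 48063 RPM and overlapped the NAWD libraries. In the IPN of mice in the same groups, the difference without factors had the same sign as in the MHb for 13 of the 23. Groups were apart in the IPN for 6 of the 23, against 15.3% of the 829 miRNAs that passed the filter there. Of these 6, miR-340-5p, miR-30a-5p, miR-328-3p and miR-744-5p had the same sign in both regions. The sign was opposite for miR-137-3p (log2 0.39 in the IPN and -0.61 in the MHb without factors). It was opposite for let-7c-5p too (-0.23 and 0.50). miR-744-5p averaged 378 ± 41.0 RPM in NAWD libraries and 248 ± 40.8 RPM in TA libraries of the IPN (SD, n = 5 each), and let-7c-5p averaged 36123 ± 1403 RPM and 42502 ± 3924 RPM in the same groups (SD, n = 5 each).

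The MHb markers were present in the mRNA libraries. Tac2, the neurokinin B precursor of MHb neurons, averaged 1198 ± 104 TPM in NAWD libraries and 633 ± 190.5 TPM in TA libraries (SD, n = 4 each), with groups apart. It was 1 of 10 MHb markers higher in every NAWD library, where 4.13% of all 17136 genes were, and nothing is read from so small a count. Ttr, a marker of the adjoining choroid plexus, averaged 29938 ± 9768 TPM in NAWD libraries and 20135 ± 8152 TPM in TA libraries (SD, n = 4 each), with groups that overlapped. Of the 5 choroid plexus markers 1, Folr1, was higher in every NAWD library, as was 1 of 2 for oligodendrocytes (Mbp) and 1 of 2 for vessels (Cldn5). Mbp, a myelin protein, averaged 1136 ± 243 TPM in NAWD libraries and 384 ± 155 TPM in TA libraries (SD, n = 4 each). Summed miRNAs of choroid plexus and ependyma ran from 29920.5 to 46709 RPM in NAWD libraries and from 24696 to 44976 RPM in TA libraries. Those of oligodendrocytes ran from 5991 to 8791 RPM in NAWD libraries and from 7739 to 9617 RPM in TA libraries, and those of blood and microglia from 843 to 1592 RPM in NAWD libraries and from 1331 to 1761 RPM in TA libraries. Those of vessels ran from 11057.5 to 15470.1 RPM in NAWD libraries and from 9806 to 11838 RPM in TA libraries. Of the 9, 4 and 8 miRNAs of the lists for choroid plexus and ependyma, oligodendrocytes, and blood and microglia, 0 were called by limma or edgeR, with 3, 2 and 3 at an unadjusted p under 0.05, and none was at 0 in all libraries. On the neuron list 1 of 8 miRNAs fell (miR-137-3p), and on the astrocyte list, the miR-29 family, 1 of 3 (miR-29b-3p). Over all tested miRNAs 1.31% fell. miR-142a-3p, 1 of the 8 of blood and microglia, was lower in every NAWD library, where 3.94% of all tested miRNAs were. Nothing is read from such small counts. The part of other cells in the changes was not tested.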

How the data were processed

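Small RNA of MHb punches was cut from a gel, ligated to adapters and sequenced. Per the study's methods, the authors cut adapters with cutadapt 1.11, mapped reads to mm10 with Bowtie 1.1.2 without mismatches, split reads that fit several miRNAs, and deposited RPM. The authors also deposited counts of miRNA reads per library. Multiplied by these, 100.0% of 47675 RPM values came to a whole read within a tolerance of 0.02. A read split between miRNAs would leave a fraction, and none showed. The authors deposited TPM per gene from STAR 2.5.3a and RSEM 1.3.0. Tables of the authors' own comparisons (a log2 fold change, its linear ratio and an adjusted p-value from DESeq2 1.14.1) were not used, nor were 5 columns of the MHb miRNA table that matched no sample.

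Log2 of RPM plus 1 was fitted with limma 3.58.1 (trend) in R 4.3.3 over the TA, Nic and NAWD libraries, with 4 factors of unwanted variation estimated from differences within groups, since the form of the authors' RUVSeq step is not stated. The changes at 4 weeks, and their difference from those at 48 h, came from a fit of all 25 MHb miRNA libraries with 4 factors. A pseudocount of 1 understates the change of low miRNAs. edgeR 4.0.16 and DESeq2 1.42.0 were run on the recovered reads as alternatives. Intervals on fold changes are standard errors over libraries. In NAWD libraries 3 reads were 0.343 to 0.543 RPM, and in TA libraries 0.674 to 1.076 RPM. Host genes were taken from GENCODE M21. The code was tested on simulated data.

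The miRNAs named are every called one, its other arm, the 10 most abundant, those the study names for the MHb, up to 4 per list and the host genes. Neighbouring miRNAs were named after their values were seen. The members and lists were chosen with earlier results of these data known. Replicate numbers did not pair the libraries.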

Additional observations from a re-analysis of the deposited data

Results flagged for a closer look

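In 5 places 1 library lay far from the other 4 of its group, where chance alone gives such a gap in about 1 of 20 groups. The number of groups looked at is not given here, so nothing is read from the count of 5. NAWD library 4 was low for miR-136-5p at 65.6 RPM, and the lowest NAWD share of the miR-29 family was 1.33%. TA library 1 was low for miR-495-3p at 408 RPM and for miR-3099-3p at 129 RPM, and TA library 5 was high for miR-29b-3p at 1707 RPM.

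The change at 48 h differed from the change at 4 weeks (limma, adjusted p under 0.01) in 19 of the called miRNAs. Among those that fell at 48 h, the difference on the log2 scale was -0.89 for miR-136-5p, -0.91 for miR-101c, -0.57 for miR-340-5p, -0.75 for miR-29b-3p, -0.77 for miR-203-3p, -0.53 for miR-137-3p, -0.65 for miR-181c-5p, -0.58 for miR-30e-5p and -0.52 for miR-30a-5p. Among those that rose, it was 0.42 for miR-320-3p, 0.41 for let-7c-5p, 0.49 for miR-872-5p, 0.46 for let-7b-5p, 0.61 for miR-669c-5p, 0.43 for miR-328-3p, 0.71 for miR-672-5p, 0.62 for miR-3099-3p, 0.82 for miR-1224-5p and 0.71 for miR-744-5p.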

How the results depend on the processing

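Each of the 23 called miRNAs kept its direction under all 27 alternatives, and 393 of 621 values stayed past the threshold. The count of 23 calls became 4 with a pseudocount of 0.1, 15 with no filter, 4 with a mean of at least 10 RPM, 1 with no factors, 126 with factors from residuals, 6 with quantile normalization, 6 with edgeR and no factors and 40 with DESeq2 and the factors. All 23 were called by edgeR and by DESeq2 with the factors. Without 1 library it ran from 6 to 47, with 9 without NAWD library 2, 6 without NAWD library 3, 47 without NAWD library 5, 14 without TA library 1 and 12 without TA library 3. With a replicate block it was 24, and 0 with a replicate block and no factors (170 at an unadjusted p under 0.05). Same-numbered libraries deviated together with correlations from -0.12 to 0.138, so the numbers were not read as pairs. With only the TA and NAWD libraries in the fit, 17 of 880 tested miRNAs were called, 16 of them among the 23. The 33 differences between 48 h and 4 weeks became 15 with a pseudocount of 0.1 and 4 with no factors, 27 with a replicate block, and ran from 15 to 52 without 1 library. The cause of these shifts was not tested. With miR-9-5p left out of the total, shares in NAWD and TA libraries were 26.9% and 22.3% for let-7, 6.72% and 8.09% for miR-30, 2.0% and 2.45% for miR-29, 1.05% and 1.39% for miR-181, and 15.01% and 17.03% for the miR-99 and miR-125 partners of let-7.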
